A study of Mus musculus with 20 samples.

Results

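The comparison set CD4+ donor T cells that lacked DNMT3a against WT CD4+ donor T cells, both sorted from the spleens of transplanted mice on day +10. It rests on 8 of the 20 RNA-Seq libraries of the study, 4 KO and 4 WT, and on the 12391 of 17101 genes in the table whose mean normalized count over these 8 libraries was at least 10. Donors were B6 mice, given as 6 to 12 weeks old in the labels, a range that differs from the one in the methods of the study. KO donors carried *Dnmt3a* alleles flanked by loxP sites together with a CD4-Cre transgene, whereas WT donors were littermates, for which the labels do not say whether Cre was present. Recipients in both groups were lethally irradiated female B6D2F1 (F1) mice of 8 to 12 weeks, given donor bone marrow and T cells in a haploidentical graft-versus-host disease model. Because thymocytes express CD4 before they commit to either lineage, this Cre acts in CD4+ and CD8+ T cells alike, and the KO animals therefore held KO cells of both subsets. The strain field of the labels reads only "primary", the KO animals are numbered 1 to 4 and the WT animals 2, 3, 5 and 6, and the libraries are called KO 1 to KO 4 and WT 2, WT 3, WT 5 and WT 6 here. Genotype and whatever else differed between the KO and the WT recipients cannot be told apart.

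DNMT3a is a de novo DNA methyltransferase that places methyl groups on cytosines of unmethylated CpG sites, whereas DNMT1 copies existing methylation at replication and the TET enzymes oxidize it. In T cells DNMT3a is known for methylating cytokine genes, such as *Ifng* in Th2 cells, as activated cells commit to a lineage.

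Each KO library had 39805175 to 46604070 reads on genes, and each WT library 37547651 to 44963524. Values are normalized counts, which are the reads on a gene divided by a single size factor for each library. Reads were found on 13378 to 13910 genes in the KO libraries and on 14421 to 14525 genes in the WT libraries, so that every KO library held fewer detected genes than every WT library. The WT libraries were also the more alike. Among the 6534 genes with a mean over 1000, the SD of log2 values had a median of 0.169 among KO and 0.089 among WT libraries, and over the 500 most variable genes the distance between libraries (log2 scale) was 28.4 to 33.3 within WT and 48.0 to 73.2 within KO. KO 3 lay nearer to each WT library (54.5 to 55.5) than to any other KO library (59.1 to 73.2). Labels give separate animal numbers for the libraries, so that the spread between them includes the spread between recipients.

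The sort was checked on the coreceptors. *Cd4* was read at 54510.5, 44804, 74386 and 72645 in KO 1 to KO 4 and at 66999, 64652, 72567 and 66902 in the WT libraries, with overlapping groups (log2 fold change -0.17, SE 0.16, adjusted P = 0.457). The T cell receptor subunit genes *Cd3e*, *Cd3d* and *Cd3g* lay between 16796 and 39154 in all 8 libraries. *Cd8a* and *Cd8b1*, which encode the CD8 coreceptor, reached 3771 and 4515 in KO 1, that is 6.5% and 9.75% of their values in CD8+ cells of the same animal, and no other CD4+ library exceeded 585.6 for *Cd8a* or 788.5 for *Cd8b1*. *Zbtb7b*, the master regulator of the CD4 lineage, was read at 7225 ± 1742 (SD, n = 4) in KO and 9128 ± 575 in WT (log2 fold change -0.36, SE 0.14, adjusted P = 0.0881). For *Cd8b1*, KO 2 to KO 4 stood at 549.9, 620.7 and 788.5, and the WT libraries at 285.3 to 548.7. The genotypes thus did not overlap for *Cd8b1*, with KO 2 only just above WT 5 (log2 fold change 1.57, SE 0.57, adjusted P = 0.0773). They overlapped for *Cd8a* (log2 fold change 0.73, SE 1.07, adjusted P = 0.643). Each library thus held the markers of the labelled cell type, and CD8 RNA was highest in KO 1 but not confined to it. In bulk RNA, fewer cells of a type and less RNA per cell cannot be told apart, and this holds for each gene below.

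RNA differed widely between the genotypes. With limma on log2(normalized count + 1) and Benjamini-Hochberg adjustment, 2274 of the 12391 genes (18.4%) passed an adjusted P of 0.05, of which 1064 (8.59% of genes tested) were higher and 1210 (9.77%) lower in KO CD4+ cells. Counts of list members below are to be read against these shares of 18.4%, 8.59% and 9.77%. Unadjusted P values under 0.05 were found for 4508 genes. Falls were the larger changes. Among the genes that passed, 470 fell by more than 1 on the log2 scale and 185 by more than 2, against 119 and 29 that rose by as much. The median log2 fold change over all genes tested was -0.05. KO and WT libraries did not overlap for 3171 genes (25.6%), and 2097 of these also passed the threshold. The number of genes past the threshold depended on single libraries, and was 628 without WT 6, 976 without WT 3, 1025 without WT 5, 1106 without WT 2 and 1352 without KO 1, but 2077 without KO 4, 2621 without KO 2 and 2963 without KO 3. None of the 2274 genes changed sign in any of these fits. Where a changed gene below has its value written out for each library, any library whose omission lost the call is given with the adjusted P obtained without it, and otherwise the gene passed in all 8 fits.

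**Figure D1:**
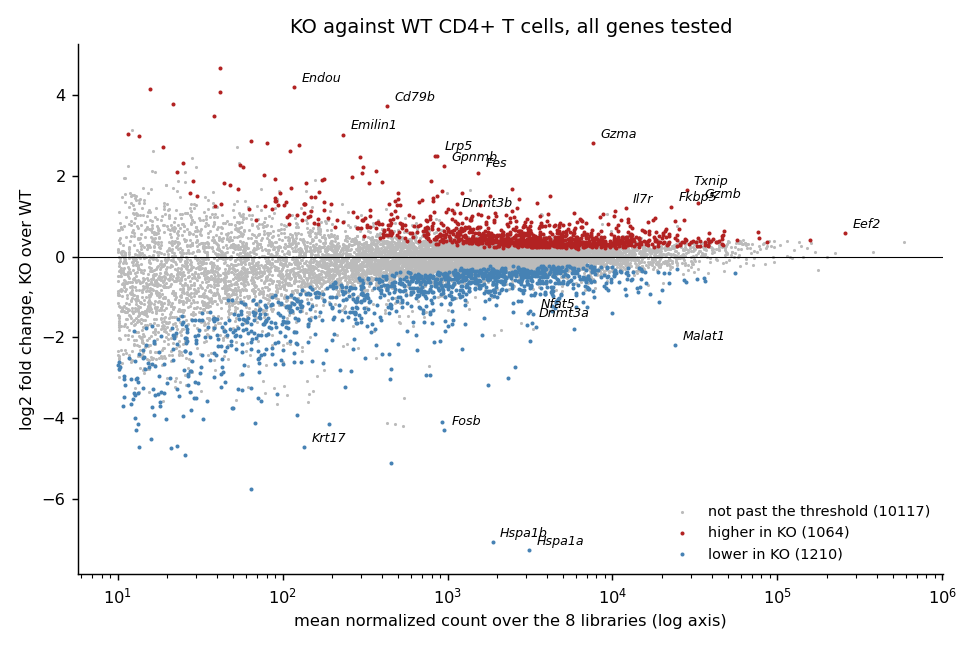
Each point is 1 of the 12391 genes tested in CD4+ cells, with its mean normalized count over the 8 libraries on a log axis and its log2 fold change, KO over WT, on the vertical axis. Genes higher in KO (1064, red) cluster at modest changes and high counts, genes lower in KO (1210, blue) spread further from 0, and *Hspa1a* and *Hspa1b* lie lowest.

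The targeted gene was examined first. *Dnmt3a* (chr12:3801559-3914443, GRCm38.p6) was read at 1658, 1628, 1639.6 and 1385 in KO 1 to KO 4 and 4906, 4690.0, 4839 and 5171 in WT 2, WT 3, WT 5 and WT 6. Each KO library thus lay below each WT library by a wide margin, with KO 4 the lowest, and the means were 1578 ± 129 and 4902 ± 201 (SD, n = 4), a 3.11-fold fall (log2 fold change -1.64, SE 0.08, adjusted P = 1.26e-05). Counts cover all exons of the gene, and the exons between the loxP sites are not given in the sources used here, so that the reads left in KO cells say nothing of the protein. *Dnmt3b*, the related de novo methyltransferase, moved the other way and was read at 1586, 1449, 1384 and 1569 in KO 1 to KO 4 and 661, 787, 641 and 738 in WT 2, WT 3, WT 5 and WT 6 (ratio 2.12, log2 fold change 1.08, SE 0.10, adjusted P = 0.000594). Every KO library exceeded every WT library for *Dnmt3b*. *Tet2*, which encodes an oxidizing enzyme, fell by 0.60 on the log2 scale (SE 0.13, adjusted P = 0.0149), from 2502 ± 334 to 1652 ± 271, and missed the threshold without WT 6 (0.0518). *Mbd2*, a reader that binds methylated DNA, rose (log2 fold change 0.55, SE 0.11, adjusted P = 0.0113). The other 8 genes of this list of 12, among them *Dnmt1* (-0.31, SE 0.19, adjusted P = 0.26), its partner *Uhrf1*, *Tet1*, *Tet3*, *Tdg*, *Mbd1*, *Mbd3* and *Mbd4*, did not pass the threshold. *Dnmt1* spread from 10954 in KO 1 to 21879 in KO 2, a wider range than all WT libraries spanned.

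**Figure D2:**
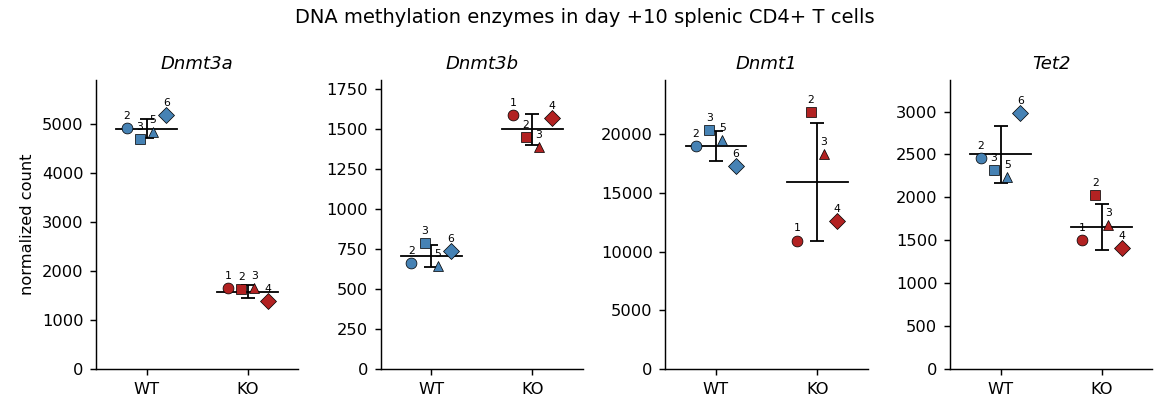
Normalized counts of 4 DNA methylation enzymes in the 4 WT (blue) and 4 KO (red) libraries, numbered by animal, with the mean as a line and the SD as an error bar. *Dnmt3a* and *Tet2* lie lower and *Dnmt3b* higher in every KO library than in any WT library, whereas *Dnmt1* overlaps.

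The largest change in either direction concerned the inducible HSP70 chaperones, proteins that bind unfolded clients after heat or other stress. *Hspa1a* was read at 33.5, 34.4, 82.1 and 13.2 in KO 1 to KO 4 and at 2221, 4506, 7352 and 10882 in WT 2, WT 3, WT 5 and WT 6. The groups were far apart, and the WT libraries spread widely, with WT 2 lowest and WT 6 highest (log2 fold change -7.26, SE 0.56, adjusted P = 0.000166). Its neighbour *Hspa1b* followed the same order of libraries in WT, with 18.2, 25.5, 38.2 and 14.3 in KO and 1297, 2717, 4331 and 6582 in WT (log2 fold change -7.08, SE 0.46, adjusted P = 6.01e-05). The genes are nearly identical copies, so that reads may have been split between them, and their promoters are near copies as well. The 130 bases before each start (RefSeq, GRCm38.p6, minus strand, 5′ to 3′, chr17:34972157-34972286 and chr17:34959239-34959368) are shown because they carry the sequence that heat shock factors bind. Capitals mark the paired heat shock unit GAANNTTC, which stood once in each window of 250 bases before and 50 after the start.
Hspa1a: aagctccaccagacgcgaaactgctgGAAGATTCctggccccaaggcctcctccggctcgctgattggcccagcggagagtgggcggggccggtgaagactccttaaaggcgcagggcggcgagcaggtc
Hspa1b: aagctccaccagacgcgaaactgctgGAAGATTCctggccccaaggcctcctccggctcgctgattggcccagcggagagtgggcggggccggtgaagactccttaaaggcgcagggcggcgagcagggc
Of the 250 bases before the start, 247 were the same in both genes, and 1 of the 3 differences falls in the stretch shown. The paired unit, read on both strands, was found in 2582 of 32851 promoter windows of this length (7.86%).

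Over 22 heat shock genes tested, the median log2 fold change was -0.27, against -0.05 over all genes. After quantile normalization 10 of them fell, and with DESeq2 7. With limma as above, 5 fell and none rose (22.7% past the threshold, against 18.4% of all genes, of which 9.77% lower). Besides the HSP70 pair these were *Hsph1*, an HSP110 nucleotide exchange factor (2429, 3046, 5176 and 2363 in KO 1 to KO 4 and 6353, 5895, 6174 and 6497 in WT 2, WT 3, WT 5 and WT 6, log2 fold change -1.01, SE 0.21, adjusted P = 0.0126), *Chordc1*, a partner of HSP90 (-0.64, adjusted P = 0.0177), and the heat shock factor gene *Hsf1* (-0.40, adjusted P = 0.0161). The last pair missed the threshold without WT 6 (adjusted P = 0.0592 for *Chordc1* and 0.0586 for *Hsf1*), and the list had 3 genes past it in that fit and 12 without KO 3. The constitutive chaperones *Hspa8* and *Hsp90ab1* had mean normalized counts of 121262 in KO and 124449.8 in WT (log2 fold change -0.04 (SE 0.11, adjusted P = 0.796)) and of 118449 in KO and 118649.7 in WT (-0.01, SE 0.12, adjusted P = 0.958), differences smaller than the spread between libraries. *Hsp90aa1*, *Hspd1*, *Hspe1* and *Dnajb1* had log2 fold changes of -0.37, -0.30, -0.19 and -0.16 and did not pass. Among the 19 heat shock genes with a promoter window, 11 held the paired unit, against 9.04% of all genes with a window. The 11 included *Hspa1a*, *Hspa1b*, *Hsph1* and *Chordc1* as well as *Dnaja1*, *Hspd1*, *Hspe1* and *Bag3*, the last 4 of which did not pass the threshold. Among all tested genes with a window, the unit stood in 6.61% of those lower, 6.02% of those higher and 7.19% of those not called.

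Immediate early genes, whose transcription is switched on within minutes of stimulation, fell in number. Of 34 tested, 17 fell and 2 rose, with a median of -0.77. Past the threshold were 55.9%, against 18.4% of all genes (9.77% lower and 8.59% higher). *Fosb*, an AP-1 subunit, was read at 152, 51.1, 64.9 and 78.0 in KO and 801, 1151, 2102 and 3226 in WT (log2 fold change -4.30, SE 0.44, adjusted P = 0.000743). *Fos* stood at 386, 258, 751 and 731 in KO and 2706, 2934, 4816 and 6079.9 in WT (log2 fold change -3.01, SE 0.36, adjusted P = 0.00182), and *Jun* at 587, 347, 835 and 937 and 2658, 3409.5, 4854 and 6841 (log2 fold change -2.72, SE 0.34, adjusted P = 0.00211). WT 6 was the highest and WT 2 the lowest WT library for all of these 3 genes, as for the HSP70 pair, and no KO library reached the lowest WT library. *Zfp36*, which promotes decay of cytokine mRNA (-0.92, adjusted P = 0.00985), *Rgs1*, a regulator of G protein signaling (-1.40, adjusted P = 0.00408), and *Nr4a3*, a nuclear receptor induced through the T cell receptor (-1.35, adjusted P = 0.0131), also fell and were retained in all 8 fits. *Dusp1*, a MAP kinase phosphatase (-1.68, adjusted P = 0.0136), and *Crem* (-1.37, adjusted P = 0.0133) were lost without WT 6 only (adjusted P = 0.0528 and 0.0512). The fall was not general. *Egr1* (-0.41, SE 0.29, adjusted P = 0.326), *Ier2* (-0.07), *Jund* (-0.17), *Btg2* (-0.05) and *Myc* (0.03) did not pass the threshold, and the activation marker *Cd69* rose (log2 fold change 0.83, SE 0.22, adjusted P = 0.0305), a call that was lost without KO 1 (0.0746), KO 4 (0.061), WT 2 (0.0802), WT 3 (0.0528), WT 5 (0.0713) and WT 6 (0.0857). The number of immediate early genes that fell was 6 without WT 6, 8 without WT 5, and 11 without WT 2 or WT 3. It was 8 with eBayes without trend and 10 in a joint fit of the 20 libraries.

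A list that holds nuclear-retained transcripts together with snoRNA host genes was lower as well. Of 7 tested, 4 fell (57.1%, against 9.77% of all genes), with a median of -1.32. *Malat1*, a long noncoding RNA of nuclear speckles, was read at 7915, 10124, 6901 and 8556 in KO and 46482, 33244, 24971 and 54049 in WT, a 4.74-fold fall (log2 fold change -2.20, SE 0.22, adjusted P = 0.000594). *Neat1*, the scaffold of paraspeckles, was read at 1270.5, 2710.1, 1399.9 and 1804 and 3715, 4396, 3367 and 6573 (log2 fold change -1.34, SE 0.25, adjusted P = 0.00938). *Miat* was read at 46.8, 177, 197 and 86.8 and 532, 840.2, 631 and 1143 (log2 fold change -2.78, SE 0.43, adjusted P = 0.00468). None of these overlapped between the genotypes, and WT 6 was again the highest library for each of them. *Snhg1*, a snoRNA host gene, passed as well (-0.59, adjusted P = 0.0385) but was lost without KO 1 (0.0628), KO 2 (0.0606), KO 3 (0.0534), WT 3 (0.107), WT 5 (0.0886) and WT 6 (0.117). *Gas5*, another snoRNA host, was read at 5669 in KO and 5803 in WT (-0.11, SE 0.24, adjusted P = 0.751). The longest transcript had a median of 3.89 kb for the genes lower in KO, 3.23 kb for those not called and 2.93 kb for those higher, and among genes averaging 100 normalized counts or more these medians were 4.06, 3.37 and 2.94 kb. These lengths are a description. RNA quality, time to lysis and the share of nuclear RNA were not measured in the sources used here, and their part in these falls was not tested.

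**Figure D3:**
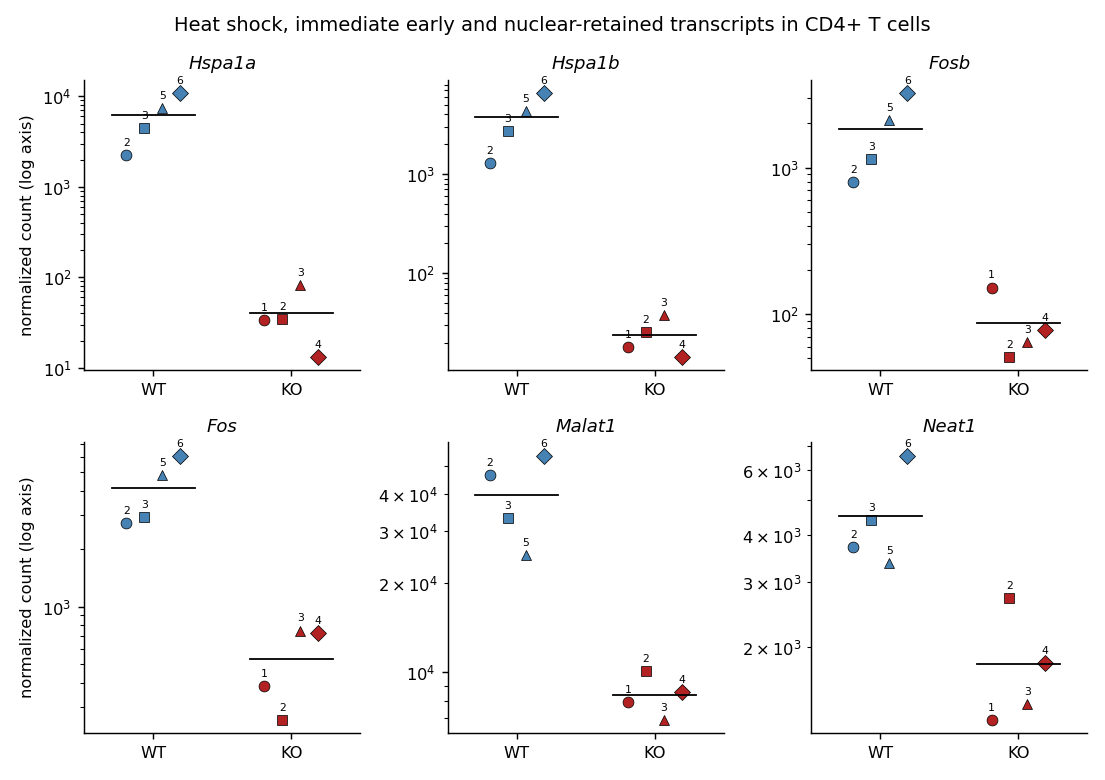
Normalized counts on log axes in WT (blue) and KO (red) libraries, numbered by animal, with the mean as a line. For *Hspa1a*, *Hspa1b*, *Fosb*, *Fos*, *Malat1* and *Neat1* every KO library lies below every WT library, and WT 6 is the highest library in each panel.

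*Endou*, an endoribonuclease, was read at 79.3, 106, 114 and 607 in KO 1 to KO 4 and 5.57, 7.34, 19.4 and 3.68 in WT 2, WT 3, WT 5 and WT 6 (log2 fold change 4.20, SE 0.68, adjusted P = 0.00553). KO 4 stood apart at the top, yet even the lowest KO library was over the highest WT library. *Cd79b*, which encodes a signaling chain of the B cell receptor, was read at 1073, 878, 581 and 652 in KO 1 to KO 4 and 40.1, 82.5, 78.7 and 42.3 in WT 2, WT 3, WT 5 and WT 6 (ratio 13.1, log2 fold change 3.72, SE 0.30, adjusted P = 0.00022), and its partner *Cd79a* at 48.8, 78.5, 64.0 and 90.0 in KO 1 to KO 4 and 13.4, 4.59, 1.94 and 5.51 in WT 2, WT 3, WT 5 and WT 6 (log2 fold change 3.47, SE 0.55, adjusted P = 0.0049). *Ms4a1* had a value above 0 in KO 4 only (4.39), *Pax5*, *Blk*, *Ebf1* and *Blnk* did not reach a mean of 10, and *Cd22*, which had the highest counts of the B cell list, was read at 1006 in KO and 1402 in WT on average (-0.50, SE 0.19, adjusted P = 0.0853). Summed over the 12 genes of the list in the table, the normalized count was 1914, 1844, 1659 and 2182 in KO and 1703, 1341, 1275 and 1674 in WT.

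*Lrp5*, a Wnt coreceptor, was read at 1651, 1255, 1227 and 1752 in KO 1 to KO 4 and 261, 308, 249 and 214 in WT 2, WT 3, WT 5 and WT 6, a 5.70-fold rise (log2 fold change 2.50, SE 0.16, adjusted P = 6.01e-05). *Gpnmb*, a transmembrane glycoprotein of lysosomes, was read at 1718, 1581, 1358 and 1598 in KO and 420.1, 273, 339 and 303 in WT (log2 fold change 2.24, SE 0.15, adjusted P = 6.01e-05). *Npc1*, which exports cholesterol from lysosomes, was read at 5283, 5519, 4581 and 4569.5 and 2195, 1829.9, 1992 and 1845 (log2 fold change 1.34, SE 0.09, adjusted P = 7.82e-05). For these 3 genes the lowest KO library was over 2 times the highest WT library. *Fes*, a cytoplasmic tyrosine kinase, rose 4.36-fold (log2 fold change 2.08, SE 0.17, adjusted P = 0.000214) and *Fkbp5*, a cochaperone of the glucocorticoid receptor, 2.35-fold, from 13626 ± 2235 to 31956 ± 1715 (log2 fold change 1.24, SE 0.11, adjusted P = 0.00056). *Emilin1*, a matrix glycoprotein (3.03), *Cabp1*, a calcium sensor (2.88), *G0s2*, an inhibitor of triglyceride lipase (2.80), *Scn2b*, a sodium channel subunit (2.76), the predicted gene *Gm15708* (2.62), the neuropeptide gene *Qrfp* (2.49) and *Igsf23* (2.46) were among the 12 largest rises of non-overlapping genes averaging 50 normalized counts or more, together with *Sorcs2*, a sorting receptor (2.26), which was lost without KO 1 (0.0607), KO 4 (0.054), WT 3 (0.0605), WT 5 (0.0591) and WT 6 (0.0674). In WT cells *Cabp1* ranged from 3.34 to 31.2, *G0s2* from 13.4 to 23.9 and *Scn2b* from 13.8 to 52.3.

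Under the same limits, the 12 largest falls included the HSP70 pair and *Fosb*, and others of them follow. *Actbl2*, an actin-like gene whose reads may be shared with other actins, was at 0 in KO 1, KO 2 and KO 4 and at 18.1 in KO 3, against 92.5, 90.8, 239 and 75.4 in WT (log2 fold change -5.74, SE 0.96, adjusted P = 0.00601). *Krt17*, a keratin, was read at 3.82, 0, 20.1 and 68.1 and 184, 189.9, 349.6 and 270.2 (log2 fold change -4.72, SE 1.05, adjusted P = 0.0165) and was lost without WT 6 (0.0579). *Unc13b*, a priming factor of vesicle release (-4.14), and *Pklr*, the pyruvate kinase of liver and red cells (-4.13), fell in all 8 fits that left out 1 library. KO 3 had the highest KO value for *Actbl2*, *Unc13b* (98.4), *Apol11b* (477), *Tal1* (44.9) and *Lyz1* (106). The falls of *Apol11b*, an apolipoprotein L (-4.10), *Tal1*, an erythroid transcription factor (-3.57), *Lyz1*, lysozyme (-3.40), and *Otx1*, a homeobox gene (-3.31), depended on single libraries. Without WT 6 their adjusted P values were 0.0658, 0.0927, 0.103 and 0.0972, without WT 5 0.0636, 0.112, 0.0843 and 0.0674, and without WT 3 0.0516, 0.116, 0.0914 and 0.0917, in the same order. Those of *Tal1*, *Lyz1* and *Otx1* were also lost without WT 2 (0.078, 0.0857 and 0.0773) and KO 1 (0.106, 0.0853 and 0.052), and that of *Lyz1* without KO 2 (0.0599).

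Markers of other cells that a spleen sort can hold were examined beside these falls. For comparison, 18.4% of all genes passed the threshold, 9.77% lower and 8.59% higher. The share was 20% for neutrophil, 33.3% for erythroid, 75% for platelet, 36.4% for macrophage, 80% for dendritic cell and 11.1% for pancreatic acinar genes. Neutrophil genes (10 tested, 2 lower, none higher, median -2.99, with 9 lower without KO 3 and 0 without any 1 WT library) summed to 72.7, 12.8, 4323 and 540.3 in KO 1 to KO 4 and to 2348, 3128, 3468 and 3635 in WT, so that KO 3 exceeded every WT library while the other KO libraries lay far below. Their difference gave an exact permutation P of 0.1429 (2-sided, adjusted over 9 marker lists 0.1837), where 0.0286 is the smallest possible with 4 against 4. *S100a9*, with the highest counts of this list, averaged 269.6 in KO and 802 in WT, and *Ltf* (lactoferrin) was read at 5.74, 0, 902 and 23.1 in KO and 544, 683, 717 and 751 in WT. Erythroid genes (3 tested, 1 lower, median -2.93, with 3 lower without KO 3 and 0 without KO 1 or any 1 WT library) summed to 186, 41.2, 1606 and 775 in KO and 1142, 2799, 5102 and 1678 in WT (exact permutation P = 0.0571, adjusted 0.1714). Globin genes and *Alas2* were not analysed here, and *Slc4a1*, the anion exchanger of red cells, had the highest counts of those that were. Platelet genes (4 tested, 3 lower, median -2.67, with 2 lower without any 1 library other than KO 3) were low throughout and summed to 93.3 to 190 in KO and 123 to 249 in WT. Macrophage genes (11 tested, 4 lower, median -0.76) had 4 calls without KO 1, 2 without KO 3 and 1 without any 1 of the other libraries, with 2 by edgeR and 1 with eBayes without trend. They summed to 2567, 2174, 2701 and 1936 in KO and 5017, 4663, 3204 and 3748 in WT, without overlap (exact permutation P = 0.0286, the smallest possible, adjusted 0.1286). *Mpeg1*, a pore-forming protein of phagocytes, led this list and fell in all 8 fits (393 in KO and 1221 in WT, -1.63 (SE 0.24, adjusted P = 0.0039)). Among 5 dendritic cell genes, 4 fell (median -2.60), namely *Flt3* (1.43 in KO and 49.5 in WT, -4.91, adjusted P = 0.00499), *Clec9a*, *Zbtb46* and *Xcr1*, while *Itgax*, which activated T cells also express, did not pass (0.37, SE 0.36, adjusted P = 0.485), and its counts kept the sum at 824 to 2270 in KO and 1371 to 1681 in WT. Without WT 6 or WT 3, *Flt3* alone of these 4 remained past the threshold. The call of *Ltf* was lost without KO 1 (0.114), KO 2 (0.062), KO 4 (0.0741), WT 2 (0.0946), WT 3 (0.103), WT 5 (0.102) and WT 6 (0.118). Those of *Lyz2*, *Car2* and *Pf4* were lost in 7, 5 and 7 of the 8 fits that left out 1 library. Pancreatic acinar genes (9 tested) had a median of 1.14, and *Cela1* rose (0.81, adjusted P = 0.0155, 0.0528 without WT 6), with sums of 1540 to 7623 in KO and 780 to 2658 in WT. The part of RNA from such cells in the changes of other genes was not tested.

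In T cells the transcription factor FOXO1, held in check by PI3K and AKT, promotes *Klf2*, and KLF2 in turn promotes the egress receptor gene *S1pr1*. *Klf2* was read at 19436, 18102, 10954 and 11038 in KO 1 to KO 4 and 7574, 7782, 7434 and 7988 in WT 2, WT 3, WT 5 and WT 6 (log2 fold change 0.90, SE 0.18, adjusted P = 0.0113). The WT libraries were nearly equal, and KO 1 and KO 2 were the highest. *S1pr1* was read at 19450.5, 14991, 8908 and 11758 in KO 1 to KO 4 and 8612, 6989.6, 6897 and 8500.4 in WT 2, WT 3, WT 5 and WT 6 (log2 fold change 0.78, SE 0.20, adjusted P = 0.0276), with KO 3 only just above the WT libraries, and its call was lost without WT 2 (0.0517), WT 3 (0.077), WT 5 (0.0751) and WT 6 (0.0654). *S1pr4*, a related receptor, rose by 0.72 (adjusted P = 0.0157, 0.0541 without WT 6). *Ccr7*, a chemokine receptor of naive and memory T cells, was read at 1587 ± 780.1 and 1250.4 ± 433 and did not pass (log2 fold change 0.27, SE 0.32, adjusted P = 0.558).

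*Il7r*, which encodes the receptor chain for the survival cytokine IL-7, was read at 22548, 9792, 13825 and 21746 in KO 1 to KO 4 and 8285, 6956, 6568 and 6331 in WT 2, WT 3, WT 5 and WT 6, a 2.41-fold rise (log2 fold change 1.20, SE 0.23, adjusted P = 0.0107). KO 1 and KO 4 stood highest and KO 2 lowest among KO, above all WT libraries. *Bcl2*, an antiapoptotic gene that IL-7 sustains, was read at 21206, 11954, 7635 and 15205 in KO 1 to KO 4 and 7289.7, 6896, 5784 and 6325 in WT 2, WT 3, WT 5 and WT 6 (log2 fold change 1.00, SE 0.25, adjusted P = 0.0233) and was lost without WT 3 (0.0548), WT 5 (0.0656) and WT 6 (0.0717). *Satb1*, a chromatin organizer of T cells (21166 ± 1344 against 11759.5 ± 1039, log2 fold change 0.85, SE 0.08, adjusted P = 0.000594), and *Lef1*, a partner of β-catenin (6999.5 ± 1364 against 3969.6 ± 399.6, log2 fold change 0.80, SE 0.14, adjusted P = 0.00654), rose in all 8 fits that left out 1 library. Of 16 naive, memory and progenitor genes, 7 rose (43.8%, against 8.59% of all genes) and none fell, with a median of 0.30. Those that rose numbered 4 without WT 3, WT 5 or WT 6, 4 with eBayes without trend and 1 in a joint fit of the 20 libraries. *Klf2*, *S1pr1*, *Il7r*, *Bcl2* and *Lef1* did not pass in the joint fit. *Tcf7*, the progenitor factor usually read together with *Lef1*, did not move with it, at 16548, 10798, 16373 and 25537 in KO and 20403, 12680.3, 15399.7 and 17903 in WT (log2 fold change 0.02, SE 0.23, adjusted P = 0.966). *Foxo1* (0.32, SE 0.11, adjusted P = 0.0698), *Cd27* (0.04), *Slamf6* (-0.01), *Id3* (-0.70) and *Bach2* (-0.63) did not pass either.

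Of 25 genes of the PI3K, mTOR and FOXO pathway, which includes *Klf2* and *S1pr1*, 10 rose (40%, against 8.59% of all genes) and none fell (median 0.17). However, 3 rose in the joint fit and 3 with eBayes without trend. *Pik3r1*, the regulatory subunit p85α of PI3K, rose by 0.60 (adjusted P = 0.0152) and *Pik3ip1*, an inhibitor of the catalytic subunit, by 1.42 (0.0188). *Ddit4*, an inhibitor of mTORC1, rose from 12121 ± 1926 to 23848 ± 5347 (log2 fold change 0.96, SE 0.17, adjusted P = 0.00792) and was the member retained in all 8 fits besides *Klf2*. *Txnip*, a FOXO target that limits glucose uptake, was read at 95433, 17073, 24615 and 41926 in KO 1 to KO 4 and 11531, 11994, 11700.3 and 10769 in WT 2, WT 3, WT 5 and WT 6 (log2 fold change 1.65, SE 0.41, adjusted P = 0.0244), with KO 1 far above the rest. *Akt1* (0.43, lost without WT 2 (0.054) and WT 6 (0.0665)) and *Eif4ebp2* (0.43, lost without KO 1 (0.082), KO 4 (0.0728), WT 3 (0.0943), WT 5 (0.0866) and WT 6 (0.108)) rose too, while *Pik3cd*, *Mtor*, *Rptor* and *Tsc2* had log2 fold changes of -0.00, 0.02, 0.17 and -0.05. *Txnip* was lost without WT 2 (0.0584), WT 3 (0.0591), WT 5 (0.0585) and WT 6 (0.0746), *Pik3ip1* without KO 1 (0.0501), WT 5 (0.0525) and WT 6 (0.0619), and *Pik3r1* without WT 6 (0.0549). Without WT 6 the list had 2 genes past the threshold, without WT 5 4, without WT 3 5 and without KO 1 6. Of 26 homing genes, *Selplg*, which encodes the scaffold of selectin ligands (46546 in KO and 30808 in WT, 0.58 (SE 0.11, adjusted P = 0.00823)), and the integrin gene *Itgb7* (0.54, SE 0.13, adjusted P = 0.0233, lost without KO 1 (0.0558), WT 3 (0.0718), WT 5 (0.0595) and WT 6 (0.0685)) rose with *S1pr1* and *S1pr4*, and *Ccr6* fell (-1.25, SE 0.31, adjusted P = 0.023, lost without KO 1 (0.0516), WT 2 (0.064), WT 3 (0.0589), WT 5 (0.0648) and WT 6 (0.0658)). Without WT 6 only *Selplg* of these was left.

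**Figure D4:**
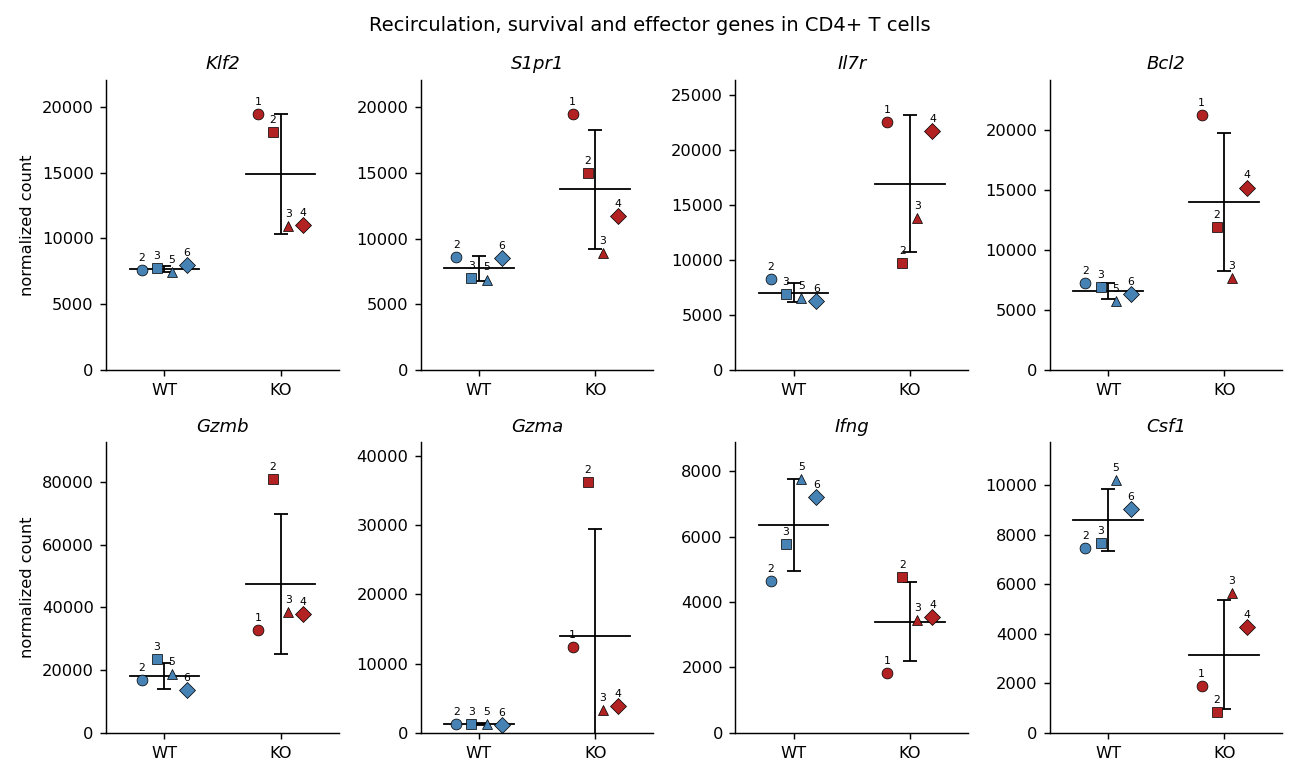
Normalized counts of 8 genes in WT (blue) and KO (red) libraries, numbered by animal, with the mean as a line and the SD as an error bar. *Klf2*, *S1pr1*, *Il7r*, *Bcl2*, *Gzmb* and *Gzma* lie higher in all KO than in all WT libraries, *Csf1* lies lower, *Ifng* overlaps, and KO 2 exceeds the other KO libraries for both granzymes.

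*Gzmb*, the main serine protease of cytotoxic granules, was read at 32778, 80806, 38648 and 37996 in KO 1 to KO 4 and 16784, 23463, 18673 and 13543 in WT 2, WT 3, WT 5 and WT 6, a 2.62-fold rise (log2 fold change 1.32, SE 0.26, adjusted P = 0.0112). *Gzma* was read at 12326, 36222, 3372 and 3937 in KO 1 to KO 4 and 1317, 1304, 1316 and 1099 in WT 2, WT 3, WT 5 and WT 6 (log2 fold change 2.80, SE 0.61, adjusted P = 0.0152). KO 2 was the highest library for both, the WT libraries were nearly equal for *Gzma*, and that gene was lost without WT 6 (0.0545). *Prf1* (perforin) rose by 0.96 (adjusted P = 0.02; lost without WT 5 (0.0508) and WT 6 (0.0684)) and *Lamp1*, a granule membrane protein, by 0.54 (0.0332; lost without KO 1 (0.0769), KO 4 (0.0671), WT 3 (0.0867), WT 5 (0.0821) and WT 6 (0.102)). These were the 4 of 19 cytotoxic genes that passed (21.1%, against 18.4% of all genes), and none fell (median 0.13, but -0.04 without KO 2). *Nkg7* (0.03), *Ctsw* (-0.11), *Ccl5* (0.13) and *Srgn* (0.09) did not pass, and *Gzmk*, *Gzmc*, *Klrg1*, *Cst7* and *Eomes* had log2 fold changes of -0.48, -1.15, -1.01, -0.84 and -1.35 without passing. NK cell markers were read beside them. *Ncr1*, which defines NK cells, was at 0 in all 8 libraries and *Tyrobp* was read at 69.3 in KO and 135 in WT (-0.99, SE 0.35, adjusted P = 0.0705), whereas *Fcer1g*, a signaling adaptor of NK and other receptors, rose from 151 ± 48.7 to 521 ± 94.2 (log2 fold change 1.82, SE 0.24, adjusted P = 0.00303) and *Klrb1c* passed with all libraries (1.85, SE 0.48, adjusted P = 0.028) but not without KO 1 (0.0574), WT 2 (0.0529), WT 3 (0.062), WT 5 (0.074) and WT 6 (0.0835). The NK list summed to 13911, 37801, 4605 and 6242 in KO and 2449, 2316, 3047 and 2330 in WT (exact permutation P = 0.0286, the smallest possible, adjusted 0.1286), and *Gzma* made up most of each KO sum.

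Of 22 cytokine and chemokine genes tested, 8 fell (36.4%, against 9.77% of all genes) and none rose, with a median of -1.07. *Csf1*, macrophage colony-stimulating factor, was read at 1878, 834, 5627 and 4281 in KO 1 to KO 4 and 7477, 7672, 10190.1 and 9033 in WT 2, WT 3, WT 5 and WT 6 (log2 fold change -1.78, SE 0.48, adjusted P = 0.0315). *Ifng* was read at 1836, 4761, 3438 and 3554 in KO 1 to KO 4 and 4647, 5763, 7774 and 7219 in WT 2, WT 3, WT 5 and WT 6 (log2 fold change -0.95, SE 0.26, adjusted P = 0.0322), where KO 2 lay above WT 2. *Il21*, a product of follicular helper cells, was read at 1329, 1231, 5460.1 and 3042 in KO 1 to KO 4 and 5268, 5252, 6638 and 6192 in WT 2, WT 3, WT 5 and WT 6 (log2 fold change -1.35, SE 0.40, adjusted P = 0.0418), where KO 3 lay within the WT range and the other KO libraries below it. *Csf2* (-1.32), *Tnfsf11*, RANK ligand (-1.18), *Xcl1* (-2.52), *Areg* (-3.18) and *Il4* (-2.90) made up the rest, the last pair from under 50 normalized counts in WT. *Tnf* (-0.71, SE 0.31, adjusted P = 0.127), *Il2* (-0.89, SE 0.60, adjusted P = 0.309), *Il10* (-0.70, SE 0.50, adjusted P = 0.335), *Ccl3* (-1.80) and *Ccl4* (-1.64) did not pass, and *Ltb*, *Il16* and *Tgfb1* had log2 fold changes of -0.09, 0.07 and -0.10. These calls were among the least stable. Falls numbered 1 with eBayes without trend, 2 in the joint fit and 4 with edgeR. No cytokine gene was past the threshold without WT 3 or without WT 6, 2 were without WT 2 or WT 5, and 4 without KO 1, against 10 that fell without KO 4, and 11 that fell and 1 that rose without KO 3. *Csf1* was lost without KO 1 (0.0768), WT 2 (0.064), WT 3 (0.0685), WT 5 (0.0788) and WT 6 (0.088), *Ifng* without WT 3 (0.0682), WT 5 (0.0866) and WT 6 (0.0993), and *Il21* without KO 1 (0.101), KO 2 (0.0621), WT 2 (0.0809), WT 3 (0.0835), WT 5 (0.0981) and WT 6 (0.109).

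**Figure D5:**
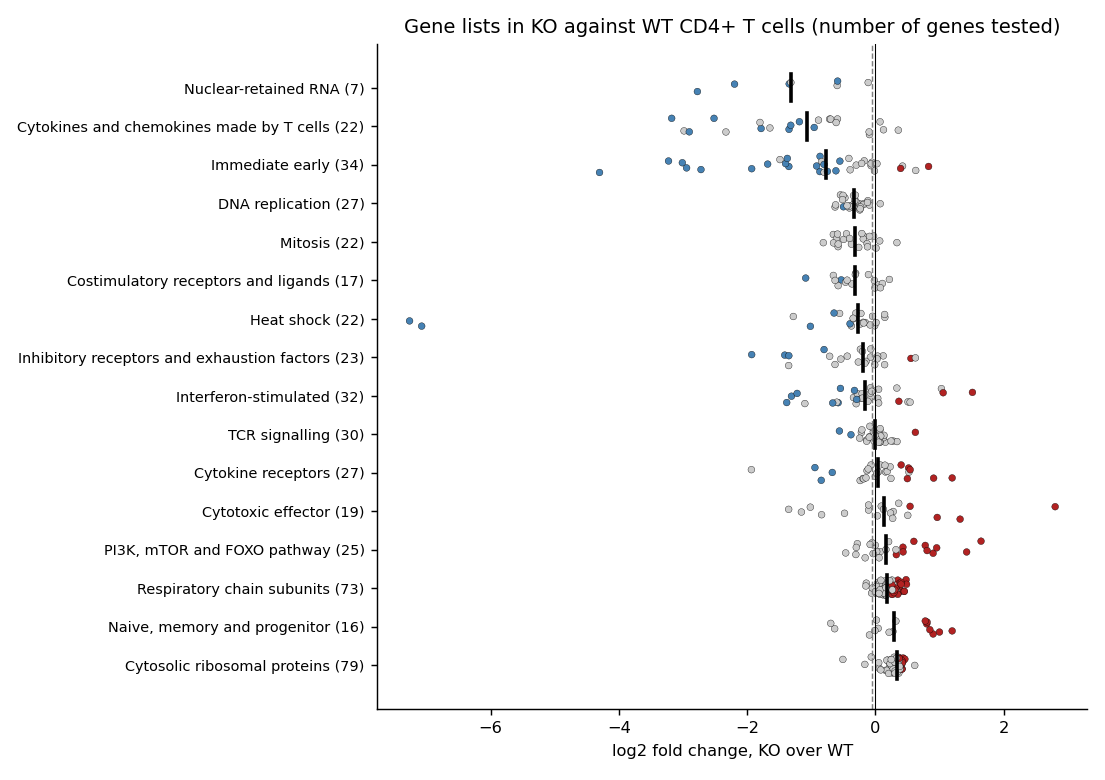
Log2 fold change, KO over WT, of every gene tested in 16 lists, with genes past the threshold in red (higher) or blue (lower), the list median as a black bar and the median of all genes (-0.05) as a dashed line. The nuclear-retained list, which includes snoRNA host genes, and the cytokine and immediate early lists have the lowest medians (-1.32, -1.07 and -0.77). Cytosolic ribosomal proteins have the highest (0.33).

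Lineage factors moved little. *Tbx21*, the Th1 factor, was read at 6892 ± 1624 in KO and 8205 ± 265 in WT (log2 fold change -0.28, SE 0.15, adjusted P = 0.19). *Gata3*, the Th2 factor, passed with a small fall (4152, 4533, 4578 and 4003 in KO 1 to KO 4 and 5202, 5203, 4831 and 5714 in WT 2, WT 3, WT 5 and WT 6, log2 fold change -0.28, SE 0.08, adjusted P = 0.0354), which was lost without KO 1 (0.0727), KO 4 (0.0666), WT 2 (0.0812), WT 3 (0.0848), WT 5 (0.0539) and WT 6 (0.108). *Bcl6* (-0.54, SE 0.28, adjusted P = 0.189), *Runx3* (0.03, SE 0.07, adjusted P = 0.772) and *Eomes* (-1.35, SE 0.58, adjusted P = 0.121) did not pass. *Foxp3* was not analysed here, and of 18 other regulatory T cell genes only *Tigit* passed (0.55, SE 0.17, adjusted P = 0.0458), a call lost in 7 of the 8 fits that left out 1 library. *Il2ra* (0.16), *Ctla4* (0.12) and *Ikzf2* (-0.63) did not pass. In the Th17 list, *Tmem176b*, a membrane protein encoded next to *Tmem176a*, was read at 2800.1, 852, 1299 and 2504 in KO 1 to KO 4 and 514, 604, 731 and 444 in WT 2, WT 3, WT 5 and WT 6 (log2 fold change 1.56, SE 0.34, adjusted P = 0.0151; lost without WT 6 (0.0564)), with KO 1 and KO 4 highest.

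Among 23 inhibitory receptors and exhaustion factors, 4 fell and *Tigit* rose (21.7% past the threshold, against 18.4% of all genes, median -0.20). Those that fell were transcription factors. *Nfat5*, the osmotic stress member of the NFAT family, was read at 1601, 1581, 2312 and 1734 in KO 1 to KO 4 and 4669, 4413, 3987 and 6219 in WT 2, WT 3, WT 5 and WT 6 (log2 fold change -1.41, SE 0.16, adjusted P = 0.00121), a fall of 2.67-fold in which no library overlapped. *Nr4a1* (-0.80, SE 0.23, adjusted P = 0.0399) and *Nr4a2* (-1.93, SE 0.57, adjusted P = 0.041) fell with *Nr4a3*, and these are also immediate early genes. *Nr4a1* and *Nr4a2* were each lost without KO 1, KO 2, WT 2, WT 3, WT 5 or WT 6, with adjusted P values up to 0.113 and 0.112. The receptor *Pdcd1* (PD-1) was read at 7158, 8004, 22965 and 14968 in KO 1 to KO 4 and 16559.5, 22984, 18420.2 and 20269 in WT 2, WT 3, WT 5 and WT 6 (log2 fold change -0.71, SE 0.31, adjusted P = 0.131), with KO 1 and KO 2 below and KO 3 and KO 4 near or within the WT range. *Lag3* was read at 4670.0, 2761, 12376 and 14644 in KO and 7452, 9412, 11483 and 9782 in WT (log2 fold change -0.44, SE 0.45, adjusted P = 0.5). *Havcr2* (-0.08), *Btla* (-0.20), *Cd160* (-0.23), *Tox* (-0.54, SE 0.23, adjusted P = 0.115), *Nfatc1* (-0.15) and *Nfatc2* (0.03) did not pass.

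Of 30 genes of proximal T cell receptor signaling, 1 rose and 2 fell (10% past the threshold, against 18.4% of all genes, median -0.00). *Prkcq*, the kinase PKCθ at the synapse, was read at 21935, 22175, 15513 and 16246 in KO 1 to KO 4 and 12718, 11837, 11768 and 12269 in WT 2, WT 3, WT 5 and WT 6 (log2 fold change 0.62, SE 0.12, adjusted P = 0.0105). *Lck* (0.16), *Zap70* (-0.09), *Lat* (0.28) and *Plcg1* (-0.02) did not pass, and *Rel* (-0.56, SE 0.15, adjusted P = 0.0337) and *Dgka* (-0.38, SE 0.11, adjusted P = 0.0363) fell with all libraries but were each lost in 6 of the 8 fits that left out 1, with adjusted P values up to 0.103 and 0.101. Among 17 costimulatory genes, *Cd226*, which encodes the activating receptor DNAM-1, was read at 3415, 2995, 3412 and 1937 in KO 1 to KO 4 and 5939, 6302, 6224 and 5902 in WT 2, WT 3, WT 5 and WT 6 (log2 fold change -1.09, SE 0.16, adjusted P = 0.00394), a fall of 2.07-fold with all KO libraries below all WT libraries. *Tnfrsf14* fell too (-0.53, SE 0.13, adjusted P = 0.0245, lost without WT 2 (0.0716), WT 5 (0.0561) and WT 6 (0.0835)), and *Cd28* (-0.02), *Icos* (0.22), *Tnfrsf4* (-0.65) and *Tnfrsf9* (-0.37) did not pass. *Cd6*, an adhesion receptor of the synapse, rose (0.54, SE 0.13, adjusted P = 0.0234) but was lost without KO 1 (0.0558), WT 2 (0.0651), WT 3 (0.0585), WT 5 (0.0564) and WT 6 (0.0684).

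Of 27 cytokine receptor genes, 6 rose and 3 fell (33.3% past the threshold, against 18.4% of all genes, median 0.05). In the joint fit 1 rose and 2 fell, and in the fit without WT 6 3 rose and 0 fell. Besides *Il7r*, *Ifngr1*, the ligand-binding chain for IFN-γ, was read at 44091, 39416, 24858 and 34519 in KO 1 to KO 4 and 20309, 19590.1, 16150.5 and 18679 in WT 2, WT 3, WT 5 and WT 6 (log2 fold change 0.91, SE 0.16, adjusted P = 0.00724), without overlap and with KO 3 the lowest KO library. *Il1rl1*, which encodes the IL-33 receptor ST2, rose as well (5889.7 ± 653 against 4051 ± 539, log2 fold change 0.54, SE 0.11, adjusted P = 0.013), as did *Il2rb* (0.52), *Tgfbr2* (0.40) and *Il17ra* (0.50), which were lost in 4, 6 and 1 of the 8 fits that left out 1 library. *Il27ra* (-0.84), *Il1r2*, the IL-1 decoy receptor (-0.94), and *Il15ra* (-0.67) fell and were lost in 5, 2 and 1 of those fits. *Il2ra* (0.16), *Il18r1* (-0.11), *Il12rb2* (-0.19) and *Ifnar1* (0.05) did not pass.

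Interferon-stimulated genes moved in both directions. Of 32 tested, 8 fell and 3 rose, with a median of -0.16. Past the threshold were 34.4%, against 18.4% of all genes (9.77% lower and 8.59% higher). *Ifitm3*, a membrane protein that blocks virus entry, was read at 6149.9, 9553, 4961 and 4385 in KO 1 to KO 4 and 2102, 2396, 2163 and 1762 in WT 2, WT 3, WT 5 and WT 6, a 2.97-fold rise (log2 fold change 1.51, SE 0.21, adjusted P = 0.00334), and its neighbour *Ifitm2* at 4795, 8695, 4196 and 4579 and 2442, 3199, 2276 and 2398 (log2 fold change 1.06, SE 0.21, adjusted P = 0.011), with KO 2 the highest library for both. *Ifitm1* was in the same direction but did not pass (1.03, SE 0.38, adjusted P = 0.0808). In contrast *Mx1*, an antiviral GTPase, fell from 1155 ± 104 to 489.9 ± 203 (log2 fold change -1.31, SE 0.22, adjusted P = 0.00659), together with *Mx2* (-1.38), *Rsad2* (-1.22), *Ifih1* (-0.67), *Ifi27* (-0.33), *Trim30a* (-0.29) and the signal transducer *Stat2* (-0.54), of which *Mx1* was the one that fell without WT 6. *Isg15* (-0.34), *Ifit1* (0.04), *Ifit3* (0.51), *Irf7* (0.05) and *Bst2* (-0.12) did not pass. The number that fell was 1 without WT 6, 3 without WT 3, 4 without WT 5 and 5 without WT 2 or KO 1. It was 3 with eBayes without trend and 4 in the joint fit.

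Of 26 genes of survival and death, 4 passed (15.4%, against 18.4% of all genes). *Bcl2* and *Bbc3*, which encodes the BH3-only protein PUMA (1.07, SE 0.34, adjusted P = 0.0496), rose, and *Birc2*, the ubiquitin ligase cIAP1 (2401 ± 368 against 3952 ± 483, log2 fold change -0.72, SE 0.12, adjusted P = 0.00626), and *Apaf1* (-0.56, SE 0.14, adjusted P = 0.0267) fell. *Bbc3* was lost without KO 1 (0.0886), KO 4 (0.0972), WT 2 (0.11), WT 3 (0.105), WT 5 (0.085) and WT 6 (0.121) and *Apaf1* without KO 1 (0.0654), WT 2 (0.0625), WT 3 (0.0663), WT 5 (0.0715) and WT 6 (0.0695). *Mcl1* (0.18), *Bcl2l11* (0.21), *Bax* (0.35) and *Fas* (0.36) did not pass. *Odc1*, the rate-limiting enzyme of polyamine synthesis, was read at 8672, 10282, 17279.8 and 12636 in KO 1 to KO 4 and 25845, 26344, 24918 and 26304 in WT 2, WT 3, WT 5 and WT 6, a 2.12-fold fall (log2 fold change -1.13, SE 0.17, adjusted P = 0.00462), with nearly equal WT libraries and KO 3 nearest to them. *Srrm2*, a splicing factor of speckles, fell as well (20441, 22613, 23620.4 and 21037 in KO 1 to KO 4 and 32092, 32446, 32062 and 40087 in WT 2, WT 3, WT 5 and WT 6, log2 fold change -0.64, SE 0.09, adjusted P = 0.00424), with WT 6 the highest.

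Of 79 cytosolic ribosomal protein genes, 14 (17.7%) rose and none fell, against 8.59% and 9.77% of all genes. A log2 fold change above 0 was found for 76, and the median was 0.33, or 0.12 after quantile normalization. Their summed normalized count was 4260052, 3279205, 4065597 and 5016223 in KO 1 to KO 4 and 3142278 to 3359578 in WT, so that KO 2 lay within the WT range. These genes have many pseudogenes, with which reads may be shared. *Rpl8* was read at 92682, 73410.1, 84459 and 109078 in KO 1 to KO 4 and 67903, 64189, 66013 and 60736 in WT 2, WT 3, WT 5 and WT 6 (log2 fold change 0.46, SE 0.12, adjusted P = 0.0312) and was lost without KO 1 (0.0711), WT 2 (0.0657), WT 3 (0.0817), WT 5 (0.074) and WT 6 (0.0958). The count of 14 rested on the libraries chosen, being 70 without KO 2 but 8 without KO 3, 6 without KO 4, 2 without KO 1 or WT 2, 1 without WT 3 and 0 without WT 5 or WT 6. Of 73 respiratory chain subunits, 22 rose (30.1%, against 8.59% of all genes), none fell and 68 were above 0 (median 0.19). *Ndufa10* of complex I had the largest rise (0.49, SE 0.11, adjusted P = 0.0177, 0.0649 without WT 6). In this list 0 rose without WT 6, 4 without WT 2, 6 without WT 5, 8 without KO 1 and 11 without WT 3. *Eef2*, the elongation factor, was read at 325437, 268454, 295925 and 347802 in KO 1 to KO 4 and 212852, 208322, 218437 and 187921 in WT 2, WT 3, WT 5 and WT 6 (log2 fold change 0.58, SE 0.14, adjusted P = 0.02; lost without KO 1 (0.056), WT 2 (0.0576), WT 3 (0.0618), WT 5 (0.0525) and WT 6 (0.0724)), the largest rise in normalized counts among the genes that passed.

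Proliferation genes gave no call in 22 mitosis genes and 1 in 27 DNA replication genes (3.7%), against 18.4% of all genes. Their medians were -0.32 and -0.33. Among the mitosis genes limma gave 0 calls with all 8 libraries, and 0 at an unadjusted P under 0.05, as did edgeR and DESeq2 on the adjusted scale, but 7 fell when KO 2 was left out, and the replication genes that fell numbered 9 in that fit. *Mki67*, the standard marker of cycling cells, was read at 19132, 49689, 28859 and 20280.1 in KO 1 to KO 4 and 29912, 33862, 30260.4 and 29635 in WT 2, WT 3, WT 5 and WT 6 (log2 fold change -0.18, SE 0.25, adjusted P = 0.63), so that KO 2 lay above all WT libraries and the other KO libraries below them. *Pold1* was the replication gene that passed (-0.50, SE 0.16, adjusted P = 0.0496), and it was lost without KO 1 (0.102), KO 4 (0.0996), WT 2 (0.0866), WT 3 (0.122), WT 5 (0.105) and WT 6 (0.109). Of 23 genes of glycolysis and the hypoxia response, *Pdk1* (0.54, SE 0.12, adjusted P = 0.017, 0.0541 without WT 6) and *Gpi1* (0.31, SE 0.08, adjusted P = 0.0333, lost in 7 of the 8 fits that left out 1 library) rose and none fell, and of 21 sterol genes *Mvd* rose (0.43, SE 0.13, adjusted P = 0.0499, lost in 7 of the 8 fits).

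Whether these changes differed from those in CD8+ cells was tested as a genotype by subset interaction over the 16 KO and WT libraries of CD4+ and CD8+ cells, for 12446 genes. Without the animal in the model, 2 genes passed (0.0161%), *Cd4* and *Nr3c1*, and with the animal as a block 173 did (1.39%). Unadjusted P values under 0.05 numbered 793 and 1897. Without the block no gene passed when any CD4+ library other than KO 3 was left out, and 3 passed without KO 3. *Cd4* was read at 302, 336, 349 and 458 in CD8+ cells of KO 1 to KO 4 and at 12.2, 79.6, 9.89 and 28.7 in those of WT 2, WT 3, WT 5 and WT 6 (log2 fold change 3.88, SE 0.57, adjusted P = 0.00263). Its difference between subsets was -4.05 (SE 0.61, adjusted P = 0.0451, or 0.00425 with the block), and in CD4+ cells its own difference lay within the spread between libraries. Whether CD4+ cells or RNA reached the CD8+ sorts of KO animals was not tested. *Nr3c1*, the glucocorticoid receptor gene, was singled out after its values were seen. It was read at 3464, 3371, 4239 and 3446 in KO and 5154, 5110, 4901 and 5072 in WT CD4+ cells, a fall of 0.48 on the log2 scale (adjusted P = 0.00692), whereas in CD8+ cells it stood at 2881 to 3872 in KO and 2316 to 2732 in WT (log2 fold change 0.36, adjusted P = 0.0286). Of the genes chosen by the rule for named genes, 5 others passed with the animal block alone. *Gzmb* rose more in CD4+ cells (difference 0.84, adjusted P = 0.0271, with a log2 fold change of 0.48 in CD8+ cells), *Odc1* fell more (-0.63, 0.0115, with -0.50 in CD8+ cells) and *Cd6* rose less (-0.51, 0.0254, with 1.05 in CD8+ cells). The adaptor gene *Grb7* was higher in CD4+ cells (1.46) by 1.32 more than in CD8+ cells (0.13, adjusted P of the difference 0.0254), and *Itga4*, the integrin α4 gene, differed by -0.48 (0.0409). In CD8+ cells *Hspa1a* had a log2 fold change of -7.42 (adjusted P = 0.000593) and *Fkbp5* of 1.26 (0.000172). Their differences between subsets were 0.16 (SE 0.99, adjusted P = 1) and -0.02 (SE 0.15, adjusted P = 1) without the block.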

How the data were processed

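RNA-Seq libraries were made from CD4+ donor T cells sorted from recipient spleens on day +10. As stated by the study and its submitters' notes, the authors aligned reads with STAR to mm10, counted them per gene on UCSC exons by union and strand, and deposited counts divided by DESeq2 size factors, that is a normalized signal for each gene and library. Multiplied by those factors, 100% of values were whole reads (within 1e-06). Here limma 3.58.1 in R 4.3.3 (lmFit, eBayes with trend, 2-sided) was run on log2(normalized count + 1) of the 8 CD4+ libraries for genes with a mean of at least 10, with Benjamini-Hochberg adjustment at 0.05 over all genes tested. A fold change on this scale understates the change of genes with few reads. edgeR 4.0.16 and DESeq2 1.42.0 on the recovered reads were alternatives, and each script was tested on simulated data. In that test 200 of 12391 genes were changed by 1 on the log2 scale, and each gene had the same spread in both genotypes. The share of false calls was 6.12% with limma, 7.24% with edgeR and 18.82% with DESeq2, and 69%, 70.5% and 75.5% of the changed genes were recovered. In the data the KO libraries spread more (median SD 0.169 against 0.089 in WT), so these shares cannot be carried over to the comparison here.

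Libraries held 37547651 to 46604070 reads on genes. No 2 libraries of a genotype agreed within sampling noise (chi-square per degree of freedom 18.0 or more), so each was counted as 1 sample. CD4+ and CD8+ libraries of the same animal deviated together from their group means (r = 0.396 to 0.499 in KO and 0.119 to 0.204 in WT), and the animal number of the labels was therefore used as a block in the test between subsets. Sums over marker lists were compared by a 2-sided exact permutation test. Named genes were *Dnmt3a*, the 12 largest rises and falls without overlap and with a mean of at least 50, the 10 genes with the smallest adjusted P, the 5 largest rises and falls in normalized count, the called member of each list with the largest rise and fall, and a set of T cell genes whatever their values. Other list members are given as examples. Members and lists were chosen with earlier results of these data known. Promoter sequences and gene positions came from RefSeq (GRCm38.p6), and transcript lengths from a separate set of transcript sequences. Genes of the X and Y chromosomes other than 2 were not analysed here. Results for some genes are not reported here.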

Additional observations from a re-analysis of the deposited data

Results flagged for a closer look

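In groups of 4 libraries, 36 of 494 groups examined had 1 library farther from the others than Dixon's 95% critical value allows, where chance gives about 1 in 20. The libraries concerned were unevenly spread. KO 3 was the highest KO library for the neutrophil sum (4323), *Ltf* (902), *Lyz2* (679.9), *Pf4* (16.2), *Flt3* (5.73), *Actbl2* (18.1), *Dnajb1* (4594) and *Nr3c1* (4239), and the lowest for *Mtor* (2395). KO 2 was the highest for *Gzmb* (80806), *Gzmk* (3577), *Ifitm2* (8695) and *Mx1* (792), and the lowest for *Prf1* (2595), *Ddit4* (15913) and *Fkbp5* (29401). KO 1 stood apart for *Cd8a* (3771), *Cd8b1* (4515), the sum of CD8 lineage markers (8287) and *Ccl5* (17752). KO 4 stood apart as the highest for *Endou* (607) and the lowest for *Dnmt3a* (1385).

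Among WT libraries, WT 5 was the highest for the CD8 lineage sum (1134), *Cd8a* (585.6), *Actbl2* (239), *Rsad2* (1862) and *Tet1* (125), and the lowest for *Mtor* (2437). WT 3 was the highest for *Csf2* (1382) and *Mki67* (33862) and the lowest for *Fas* (917) and *Il17ra* (6791). WT 6 was the highest for *Srrm2* (40087) and the lowest for *Gzma* (1099), and WT 2 was the highest for *Tyrobp* (202) and the lowest for the dendritic cell sum (1371).

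Limma's interaction of genotype and subset over 16 libraries passed for 15 of the genes named here, most of them with the animal block only. Over all 12446 genes, 2 (0.0161%) passed without the block and 173 (1.39%) with it. *Cd4* (-4.05) and *Nr3c1* (-0.84) passed with and without the animal block. With the block only, the log2 fold change was higher in CD4+ cells for *Grb7* (difference 1.32), *Gzmb* (0.84), *Myc* (0.68), *Gas5* (0.62), *Nr4a1* (0.62), *Bax* (0.46), *Ctsw* (0.46) and *Il2rb* (0.43). It was lower in CD4+ cells, again with the block only, for *Wfikkn2* (-0.64), *Odc1* (-0.63), *Cd6* (-0.51), *Itga4* (-0.48) and *Rptor* (-0.42).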

How the results depend on the processing

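The numbers of changed, higher and lower genes in CD4+ cells (2274, 1064 and 1210) stayed within 1.5 times under a pseudocount of 10, library weights, quantile normalization, a common 75th percentile, edgeR, and no minimum mean or one of 50, where the total ranged from 2071 to 2409. They were 1403 changed and 589 higher with eBayes without trend, 1646 higher with DESeq2 on whole reads, and 1304 changed, 633 higher and 671 lower in a joint fit of the 20 libraries. With 1 library left out, the totals ranged from 628 to 2963, with 295 to 1343 higher and 333 to 1620 lower. No gene that passed changed sign under any of these alternatives. KO and WT animals share only the numbers 2 and 3 (r = 0.098 and 0.077 between same-numbered libraries), and with the replicate number as a block 26 genes passed, 10 higher and 16 lower. In that fit the KO effect comes from the libraries numbered 2 and 3 alone, so the loss of calls says little about the processing. Of 88 named genes that passed, 77 did not with that block, 38 in the joint fit, 31 without trend, and 2 to 10 with the other tools, scalings, pseudocount and minima, apart from 1 of 87 at a minimum mean of 50. The test between subsets gave 173 genes with the replicate block by animal number, 21 with DESeq2 and 0 to 3 with 1 CD4+ library left out. The median of the ribosomal protein list was 0.12 rather than 0.33 after quantile normalization. The cause of these shifts was not tested.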

Other observations

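Genes outside the lists also moved. Those given here were chosen after their values were seen, from among the 12 largest rises and 12 largest falls of genes that passed, had a mean normalized count of at least 1000, did not overlap between the genotypes and stood in no list. *Gcg*, the proglucagon gene of pancreatic α cells and gut, was read at 309, 152, 880.4 and 218 in KO 1 to KO 4 and 2042, 1689, 5576 and 3183 in WT 2, WT 3, WT 5 and WT 6, an 8.01-fold fall (log2 fold change -3.18, SE 0.51, adjusted P = 0.00544). All KO libraries lay below all WT libraries. *Ppp1r15a*, which encodes GADD34, the phosphatase subunit that restores translation after stress, was read at 1175, 838, 1406 and 1223 in KO 1 to KO 4 and 3304, 3868, 6155 and 7206 in WT 2, WT 3, WT 5 and WT 6 (log2 fold change -2.10, SE 0.24, adjusted P = 0.00165), also without overlap. *Eif4a2*, an RNA helicase of translation initiation, fell to 5490.4 ± 689 from 14486 ± 2795 (log2 fold change -1.39, SE 0.13, adjusted P = 0.000594).

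MHC class II molecules present peptides to CD4+ T cells. *Cd74*, the invariant chain of class II, was read at 1495, 925, 2277 and 1848 in KO 1 to KO 4 and 6352, 5246, 4847 and 4507 in WT 2, WT 3, WT 5 and WT 6 (log2 fold change -1.74, SE 0.23, adjusted P = 0.00316), and *H2-Ab1*, the class II β chain, at 455, 263, 897 and 660.0 in KO and 2019, 1764, 1149.9 and 1385 in WT (log2 fold change -1.58, SE 0.33, adjusted P = 0.0134). In both the lowest WT library exceeded the highest KO library. Of the macrophage and dendritic cell genes, 4 of 11 and 4 of 5 fell with all libraries, but 1 of each fell without WT 3 or without WT 6, and their part in these values was not tested.

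Among the rises, *Rras2*, a RAS-like GTPase, was read at 3069, 4638, 1768 and 1508 in KO 1 to KO 4 and 1034, 871, 858 and 745 in WT 2, WT 3, WT 5 and WT 6 (log2 fold change 1.51, SE 0.30, adjusted P = 0.0113), with KO 2 the highest. *Plac8* (11885 in KO and 5721 in WT, log2 fold change 1.06, SE 0.10, adjusted P = 0.000594) and *Lgals3*, galectin-3 (14228 in KO and 6480.0 in WT, log2 fold change 1.12, SE 0.16, adjusted P = 0.00378), rose as well, and *Wfikkn2*, a secreted inhibitor of growth factors of the myostatin type, rose from 1177 ± 338 to 3732 ± 917 (log2 fold change 1.68, SE 0.24, adjusted P = 0.00372).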
